A study of Mus musculus with 16 samples.

Results

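The acute phase genes described here are the pentraxins Apcs and Crp, the serum amyloid A genes Saa1, Saa2, Saa3 and Saa4, the orosomucoids Orm1 and Orm2, lipocalin 2 (Lcn2) and haptoglobin (Hp). They were chosen by name: every probe that the array annotation assigns to 1 of these 10 genes was taken, which gave 12 of the 25697 probes and 10 of the 16590 genes. Hp had 3 probes and each other gene 1. The 12 probes all passed the filter on dim probes. Hepatic RNA was measured on Illumina Mouse Ref 8 arrays, and each strain, A/J and C57BL/6J, contributed 8 samples. Both groups were male inbred mice labelled with an age of 8 weeks and fed the same High Fat High Calorie (HFHC) diet, a model of fatty liver, and no sample on another diet was analysed here. By the study's methods the mice were at least of that age when used and the feeding lasted equally long, so whether the label gives an age or a time on the diet cannot be told apart. Per the study's methods samples were pooled from a pair of mice, and the labels do not say which animals stand behind a sample, so the p-values rest on the sample-to-sample spread alone, which may be technical.

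Acute phase proteins are secreted by hepatocytes in larger or smaller amounts when IL-6, IL-1 and related cytokines signal inflammation or injury. In mice the main inducible members are serum amyloid P component (Apcs), SAA1 and SAA2, whereas CRP, which is strongly induced in humans, responds little. The pentraxins are ring-shaped pattern-recognition proteins, the serum amyloid A proteins are apolipoproteins of high-density lipoprotein, the orosomucoids are plasma carriers of drugs and lipids, lipocalin 2 binds iron-carrying siderophores of bacteria and haptoglobin binds free haemoglobin.

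The probes are shown because near-identical neighbours can share signal. The Apcs probe had no run of 18 or more bases in common with a probe of another gene, and it reads as follows from 5′ to 3′.
Apcs: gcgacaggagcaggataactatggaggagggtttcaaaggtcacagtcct
The probes of Orm1 and Orm2 shared a run of 21 bases, in capitals.
Orm1: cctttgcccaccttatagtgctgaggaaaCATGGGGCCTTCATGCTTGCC
Orm2: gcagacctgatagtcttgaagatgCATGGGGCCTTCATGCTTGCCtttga
The probes of Saa1 and Saa2 shared a run of 20 bases, in capitals within a 30-base stretch of each probe.
Saa1: gtgctgggggCCTGAGGGTGGGGTCTGGGC
Saa2: gtgttggggtCCTGAGGGTGGGGTCTGGGC
Signal from a gene on the probe of its neighbour was not tested for these pairs, and neither was a sequence difference of A/J under any probe.

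The signals are quantile-normalized values on a log2 scale that ran from 7.61 to 14.97 over all probes, with an array median of 8.01. Differences are A/J minus C57BL/6J, and a fold is 2 to the power of that difference, which holds only if the deposited scale is a plain log2, a point the sources used here do not settle. A probe was called different at a Benjamini-Hochberg adjusted p of at most 0.05 in limma and a fold of at least 1.5. Signals of different probes were not set against each other, and in whole liver fewer cells of a type and less RNA per cell cannot be told apart. Of the 12 probes 2 were called, Apcs higher and Orm2 lower in A/J, where 4.86% of all tested probes were called, 1.91% higher and 2.96% lower. The adjusted p alone was passed by 4 of the 12, namely Apcs, Orm1, Orm2 and Lcn2, against 26.5% of all tested probes. The samples of the strains did not overlap for 1 of the 12, against 8.51% of all tested probes. Over the 10 genes the median difference was -0.19, beside 0.01 for all genes, with 6 of 10 lower in A/J.

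**Figure D1:**
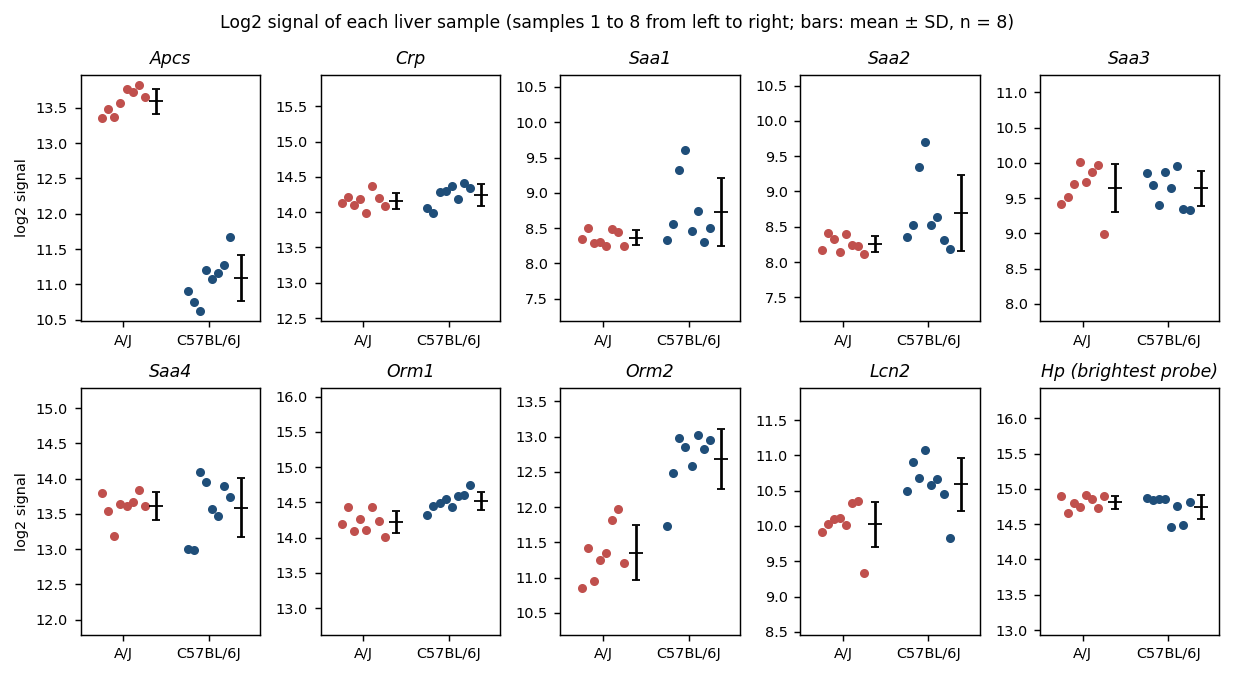
Log2 signal (vertical axis) of each gene in the 8 A/J samples (red) and the 8 C57BL/6J samples (blue), with sample numbers 1 to 8 running from left to right and the mean ± SD as a black bar. Each panel spans the same number of log2 units, so that distances can be compared. Apcs is the panel with a gap between the strains, and Saa1 and Saa2 each show 2 high points, C57BL/6J samples 3 and 4.

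Among the pentraxins Apcs stood apart between the strains and Crp did not. Serum amyloid P component binds amyloid fibrils and chromatin, and its gene lies on chromosome 1 (GRCm38.p6, chr1:172893961-172895054). Hepatic Apcs signal in A/J ran from 13.36 through a median of 13.61 to 13.82, and in C57BL/6J from 10.63 through 11.12 to 11.68. Each of the 8 A/J samples was above the highest C57BL/6J sample. The difference was 2.51 (SE 0.12, 95% interval 2.25 to 2.76, n = 8 per strain), a fold of 5.68 with an adjusted p of 3.56e-11 in limma. Within either strain the spread was far smaller than this difference, with an SD of 0.18 in A/J and 0.33 in C57BL/6J. In A/J the mean was 13.44 in samples 1 to 4 and 13.74 in samples 5 to 8, and in C57BL/6J it was 10.87 and 11.30. Apcs was thus lower in samples 1 to 4 in both strains, while the strain difference was 2.57 in samples 1 to 4 and 2.44 in samples 5 to 8. What the sample numbers stand for is not given in the labels.

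C-reactive protein, the other short pentraxin, is encoded 194 kb from Apcs (chr1:172698056-172699966). Its signal ran from 13.99 through 14.16 to 14.37 in A/J and from 13.99 through 14.29 to 14.41 in C57BL/6J, so the strains overlapped almost fully. The difference was -0.08 (SE 0.07, 95% interval -0.22 to 0.05, limma adjusted p = 0.395). The interval lay inside 1.5-fold in either direction.

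**Figure D2:**
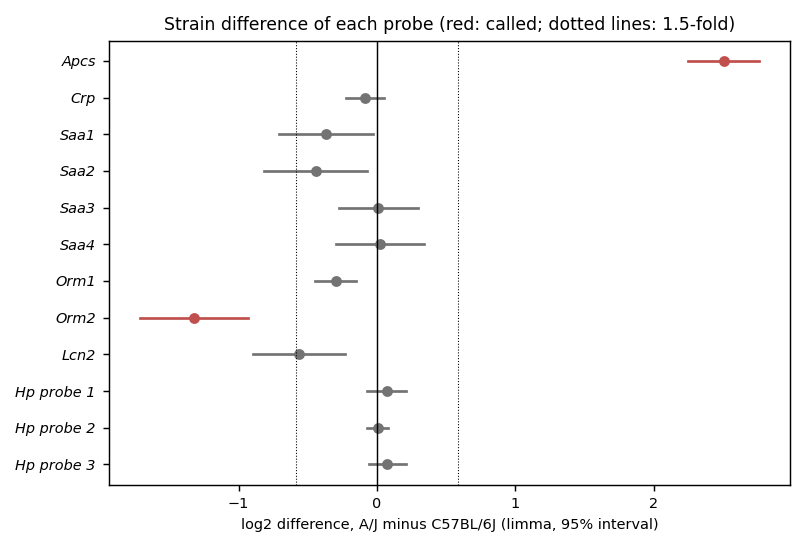
Difference in log2 signal, A/J minus C57BL/6J (horizontal axis), with its 95% interval from limma for each of the 12 probes (n = 8 per strain). The called probes, Apcs at 2.51 and Orm2 at -1.32, are red, the dotted lines mark 1.5-fold, and the 3 Hp probes sit close to 0.

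Within 1 Mb of Apcs 9 genes were tested, and 3 of these were called, where 5.29% of all tested genes were called, 2.13% higher and 3.16% lower. Ackr1, a chemokine-binding receptor 437 kb away, was higher in A/J by 0.61. Dusp23, a dual-specificity phosphatase 261 kb away, was lower by 0.96 (difference -0.96), and Pex19, a peroxisome assembly factor 757 kb away, was lower with a difference of -0.63. Copa (-0.56, adjusted p = 3.59e-05) and Slamf9 (-0.21, adjusted p = 0.00183), named after their values were seen, passed the adjusted p in limma and not the fold. Both were lower in A/J. Apcs therefore had called neighbours of either sign, with Crp between Dusp23 and Apcs not called.

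The serum amyloid A genes lie together on chromosome 7, and none was called. The acute phase forms Saa1 (chr7:46740497-46743181) and Saa2 (chr7:46751833-46754313) were dim in most samples. Saa1 in A/J ran from 8.24 through 8.33 to 8.51. In C57BL/6J it was between 8.30 and 8.74 in 6 samples and reached 9.32 in sample 3 and 9.61 in sample 4. Saa2 behaved alike, with 8.11 through 8.24 to 8.41 in A/J, 8.18 to 8.64 in 6 C57BL/6J samples, and 9.34 and 9.70 in C57BL/6J samples 3 and 4. Of the 8 C57BL/6J samples 4 for Saa1 and 5 for Saa2 were above the highest A/J sample, and the others lay within or near the A/J range. The SD was larger in C57BL/6J than in A/J by a factor of 4.54 for Saa1 and 4.72 for Saa2. The strain difference was -0.37 (SE 0.16, adjusted p = 0.103) for Saa1 and -0.44 (SE 0.18, adjusted p = 0.0755) for Saa2 in limma. Without C57BL/6J samples 3 and 4, a step chosen after seeing the data, the differences were -0.12 and -0.17, with adjusted p of 0.225 and 0.105 in limma. In both strains the lowest Saa1 and Saa2 samples were close to the array median of 8.01.

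Saa1 and Saa2 are transcribed away from each other, and their promoters are shown because both genes were highest in C57BL/6J samples 3 and 4. Their probes share 20 bases, and whether the promoters bear on those high values was not tested. Promoters from RefSeq (GRCm38.p6) were matched for 8 of the 10 genes, all but Orm1 and Hp. Over the 250 bases before the start that the promoter table gives, those of Saa1 and Saa2 were 94.8% identical (238 of 251 aligned positions), against 45.5% to 54.3% for the other pairs. The last 120 bases before the start are printed 5′ to 3′ on the gene's strand, Saa1 from chr7:46742981-46743100 (minus strand) and Saa2 from chr7:46751713-46751832 (plus strand), with the bases that have no identical partner in capitals.
Saa1: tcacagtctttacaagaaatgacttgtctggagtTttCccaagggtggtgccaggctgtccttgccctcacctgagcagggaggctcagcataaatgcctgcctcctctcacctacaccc
Saa2: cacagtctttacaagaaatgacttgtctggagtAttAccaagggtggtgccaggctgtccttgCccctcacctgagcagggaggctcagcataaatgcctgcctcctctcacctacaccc
Searched on both strands of the 250 bases, the C/EBP-type motif TTNNGNAA occurred at 2 places in Saa1 and at 1 place in Saa2, and 36.8% of all 32851 promoters held it. The Saa1 match within the printed stretch spans both capital letters, and Saa2 has no match there. The same motif was found in Crp, Lcn2, Orm2, Saa3 and Saa4 but not in Apcs. The STAT3-type motif TTCNNNGAA was found in Apcs alone among the 8 promoters (7.02% of all promoters), and the NF-kB consensus in none of the 8 (7.25% of all promoters). These are letter matches in a short window and say nothing of binding.

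Saa3, which in mice is made by macrophages and fat as well as by liver, ran from 8.99 through 9.71 to 10.01 in A/J and from 9.32 through 9.66 to 9.96 in C57BL/6J. The difference was 0.01 (SE 0.14, 95% interval -0.28 to 0.30, limma adjusted p = 0.969). Saa4, a constitutive apolipoprotein of high-density lipoprotein, ran from 13.19 through 13.62 to 13.83 in A/J and from 12.99 through 13.65 to 14.09 in C57BL/6J. Its difference was 0.02 (SE 0.15, 95% interval -0.29 to 0.34, limma adjusted p = 0.941). In C57BL/6J the lowest Saa4 samples were 1 and 2 (13.00 and 12.99) and the highest 3 and 4 (14.09 and 13.96), the samples with the highest Saa1 and Saa2. Sample 7 was close behind for Saa4 (13.90), yet its Saa1 was the lowest of the strain (8.30).

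Both orosomucoids were lower in A/J, Orm2 by the larger amount. They are encoded side by side on chromosome 4, Orm1 at chr4:63344556-63348163 and Orm2 at chr4:63362449-63365877. Orm2 signal ran from 10.86 through 11.30 to 11.97 in A/J and from 11.74 through 12.84 to 13.02 in C57BL/6J. Of the 8 A/J samples 6 were below the lowest C57BL/6J sample, which was C57BL/6J sample 1, and the other 7 C57BL/6J samples, at 12.49 or above, were all above the highest A/J sample. The difference was -1.32 (SE 0.19, 95% interval -1.72 to -0.93), a fold of 2.50 with an adjusted p of 2.98e-05 in limma. Like Apcs, Orm2 was lower in samples 1 to 4 than in samples 5 to 8, with means of 11.12 and 11.59 in A/J and of 12.51 and 12.84 in C57BL/6J. The strain difference was -1.39 in samples 1 to 4 and -1.26 in samples 5 to 8.

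Orm1 ran from 14.01 through 14.21 to 14.44 in A/J and from 14.31 through 14.52 to 14.74 in C57BL/6J, and 6 of the 8 A/J samples were below the lowest C57BL/6J sample. The difference was -0.30 (SE 0.07, 95% interval -0.44 to -0.15), a fold of 1.23 with an adjusted p of 0.00341 in limma, so Orm1 passed the adjusted p and not the fold. With 4 samples a strain the adjusted p in limma was 0.135 in samples 1 to 4 (difference -0.20) and 0.0217 in samples 5 to 8 (difference -0.40). The Orm1 probe ranked between 22 and 215 of the 25697 probes in every sample, near the upper end of the scale.

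Lcn2 (chr2:32384637-32387739) was lower in A/J by slightly less than the fold threshold. Its signal ran from 9.33 through 10.06 to 10.36 in A/J and from 9.83 through 10.63 to 11.08 in C57BL/6J. Of the 8 C57BL/6J samples 7 were above the highest A/J sample, and the strains overlapped through C57BL/6J sample 8, the lowest of its strain. The difference was -0.56 (SE 0.16, 95% interval -0.90 to -0.23), a fold of 1.48 with an adjusted p of 0.0125 in limma. It was -0.75 in samples 1 to 4 (adjusted p = 0.00123 in limma) and -0.38 in samples 5 to 8 (adjusted p = 0.341), and the difference between these values was not tested. The lowest sample of either strain was its sample 8.

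Hp (chr8:109575128-109579172) was measured by 3 probes, of which the first and the third, in order of brightness, share 41 bases. In the same order the A/J means were 14.81, 14.71 and 14.64 and the C57BL/6J means were 14.74, 14.70 and 14.56. The differences were 0.07, 0.00 and 0.08, with limma adjusted p of 0.497, 0.949 and 0.423. The probes ranked between 3 and 123 of the 25697 in all samples, and the highest value of the table was 14.97, so little range was left above them. The brightest probe is used for Hp below.

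The members also differed in how much they varied between samples of a strain. The median SD within strains was 0.13 over all tested probes. Orm2 had an SD of 0.41, above 97.6% of tested probes, followed by Saa2 (0.39), Saa1 (0.35), Lcn2 (0.35), Saa4 (0.33), Saa3 (0.30) and Apcs (0.26, above 91.4%). Crp (0.13) and Orm1 (0.14) were close to the median, and the 3 Hp probes had SDs of 0.14, 0.06 and 0.13.

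Whether Apcs moves with the other acute phase genes was examined within strains, since the strains differ in Apcs and a pooled correlation would measure that difference. Each gene's strain mean was subtracted and samples were permuted within strains (n = 16), and each strain was also taken alone with an exact test over all pairings (n = 8), two-sided. Of these 27 tests, 9 pairs in 3 ways, 0 passed an adjusted p of 0.05 and 2 had an unadjusted p below 0.05, with Orm2 in A/J and with Orm1 in C57BL/6J. Over the 16 samples r ran from -0.36 with Lcn2 to 0.48 with Orm2, and 4 of the 9 were positive. Without C57BL/6J samples 3 and 8, the farthest in Apcs, 8 of the 9 were positive. There 5 of the 27 tests had an unadjusted p below 0.05, and 0 passed the adjusted p over the 27.

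The highest value was with Orm2 (r = 0.485, permutation p = 0.077, adjusted p = 0.512; Spearman's rho = 0.512, permutation p = 0.0565, n = 16). In A/J alone it was 0.830 (exact p = 0.0118, adjusted p = 0.319) and in C57BL/6J 0.337 (exact p = 0.401). Without the 2 samples farthest in Apcs, C57BL/6J samples 3 and 8, r was 0.745 (permutation p = 0.00377), and with samples 1 to 4 and 5 to 8 centred separately it was 0.202. The value next to it was with Orm1 (r = 0.457, permutation p = 0.0674, rho = 0.424 with permutation p = 0.119), from 0.0675 in A/J to 0.772 in C57BL/6J (exact p = 0.868 and 0.0263). With Saa4 r was 0.310 (permutation p = 0.356), 0.481 in A/J and 0.268 in C57BL/6J. Without C57BL/6J samples 3 and 8 it was 0.724 (permutation p = 0.00533), and with samples 1 to 4 and 5 to 8 centred separately it was 0.196. Without those 2 samples the adjusted p of Apcs with Orm2 and with Saa4 was 0.072 over the 27 tests and 0.024 over the 9 pairs of 14 samples alone (permutation), so whether these pairs passed there depended on which tests were counted together. The acute phase SAA genes gave values below 0, with r = -0.181 for Saa1 and -0.30 for Saa2, and both were above 0 without the 2 samples farthest in Apcs (0.233 and 0.214). Apcs was at its lowest C57BL/6J value, 10.63, in sample 3, where Saa1 and Saa2 were at 9.32 and 9.34, and at 11.21 in sample 4, where they were highest.

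**Figure D3:**
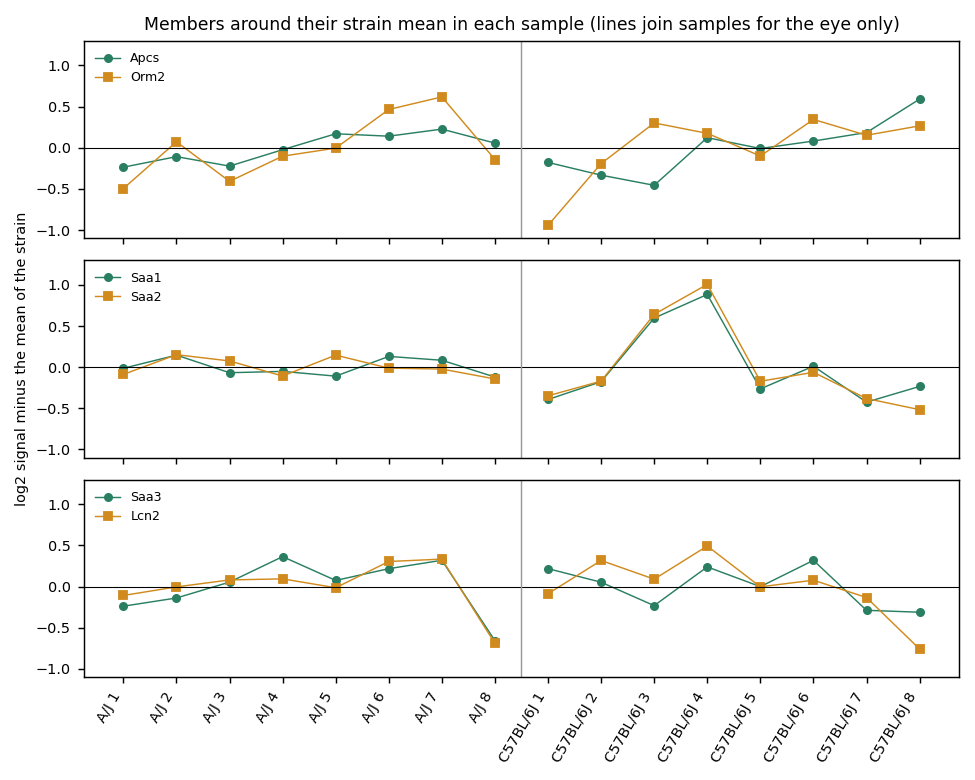
Log2 signal minus the strain mean (vertical axis) in each of the 16 samples for Apcs and Orm2 (top), Saa1 and Saa2 (middle) and Saa3 and Lcn2 (bottom). Saa1 and Saa2 are both highest in C57BL/6J samples 3 and 4, Saa3 and Lcn2 are each at the lowest A/J value in A/J sample 8 and at the lowest C57BL/6J value in C57BL/6J sample 8, and Apcs and Orm2 lie mostly below 0 in the lower sample numbers.

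Of all 45 pairs of the 10 genes, 2 passed an adjusted p of 0.05 over the 45, both with r above 0. Saa1 and Saa2 had r = 0.942 (permutation p = 0.00105, adjusted p = 0.0236; rho = 0.631, permutation p = 0.0153, adjusted p = 0.115, n = 16). This relation rested on C57BL/6J samples 3 and 4, without which r was 0.498, and it was 0.255 in A/J against 0.974 in C57BL/6J. Saa3 and Lcn2 had r = 0.754 (permutation p = 0.00086, adjusted p = 0.0236; rho = 0.738, permutation p = 0.00267, adjusted p = 0.101), with 0.918 in A/J and 0.605 in C57BL/6J. Without A/J sample 8 and C57BL/6J sample 8, the farthest in Saa3, r was 0.546 (permutation p = 0.0559). By rho neither pair passed the adjusted p, and neither passed with samples 1 to 4 and 5 to 8 centred separately (adjusted p = 0.0937 for Saa1 with Saa2 and 0.0723 for Saa3 with Lcn2, permutation).

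The remaining pairs did not pass. Saa4 had r = 0.527 with Saa1 and 0.422 with Saa2 (permutation adjusted p = 0.357 and 0.559). Without C57BL/6J samples 3 and 4 these values were 0.007 and -0.38. Crp had r = 0.670 with Saa4 and 0.662 with Orm1 (permutation p = 0.012 and 0.00508, adjusted p = 0.0903 and 0.0762). Orm1 and Orm2, whose probes share 21 bases, had r = 0.643 (permutation p = 0.0104, adjusted p = 0.0903), and with samples 1 to 4 and 5 to 8 centred separately r was 0.754 (adjusted p = 0.0328, permutation).

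**Figure D4:**
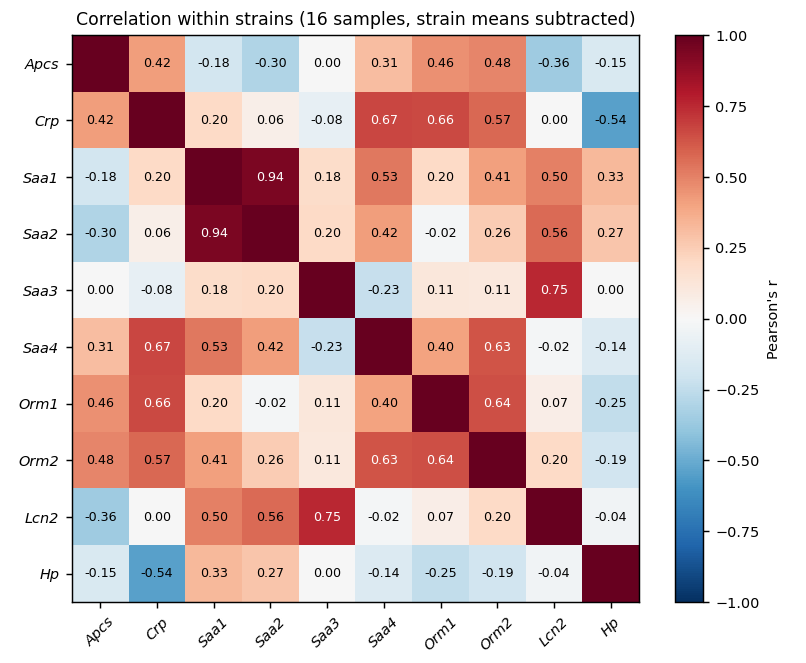
Pearson's r between each pair of genes over 16 samples after the strain means were subtracted (colour from -1 in blue to 1 in red, with the value in each cell). The cells of Saa1 with Saa2 (0.94) and of Saa3 with Lcn2 (0.75) are the pairs that passed the adjusted p, and the row of Apcs runs from -0.36 to 0.48.

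The genes whose signal was most like that of Apcs within strains were Pdia6, a protein disulfide isomerase of the endoplasmic reticulum (r = 0.907 over 16 samples), Cct8, a subunit of a cytosolic chaperonin (0.892), Serinc5 (0.887), the RNA-binding protein gene Hnrnpa3 (0.883) and the interferon-induced membrane protein gene Ifitm1 (0.878). These are the highest of all tested genes and are given as a description, and none of the acute phase genes was among them. Pdia6 was itself called higher in A/J, by 1.21, and its r with Apcs was 0.833 with samples 1 to 4 and 5 to 8 centred separately. Serinc5, Hnrnpa3 and Ifitm1 were at mean signals of 8.08, 8.02 and 8.16, next to the array median. For Saa4, the brightest SAA probe, the nearest were the serum protein Itih3 (0.833), the cytokine receptor Il17ra (0.831), the endosomal sorting protein Snx10 (0.822), Cpn2, a subunit of the plasma enzyme carboxypeptidase N (0.820), and the splicing factor Prpf6 (0.816). For Saa1, a gene added after its values were seen, they were Saa2 (0.942), Cpne8 (0.926), the NF-kB cofactor Bcl3 (0.910), Slc41a2 (0.877) and the adaptor of IL-1 and Toll-like receptors Myd88 (0.876). Without C57BL/6J samples 3 and 4 these values were between 0.157 for Myd88 and 0.615 for Cpne8.

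**Figure D5:**
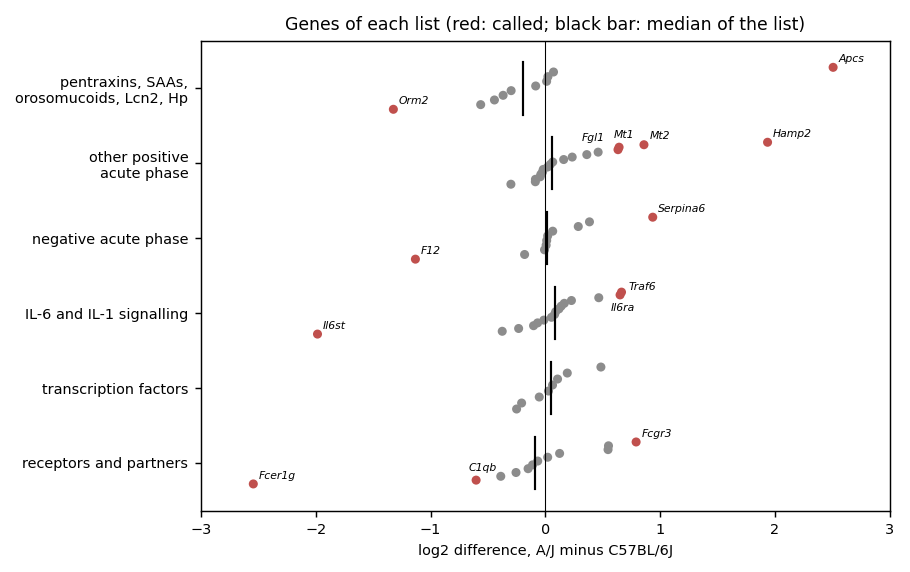
Difference in log2 signal, A/J minus C57BL/6J (horizontal axis), of each tested gene in the acute phase lists (rows), with called genes in red and named, and the median of each list as a black bar. The list medians lie between -0.19 and 0.08, and called genes stand on either side of 0.

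Of the other acute phase genes a minority was called between the strains. Of the other positive acute phase genes 18 of 25 were tested, 4 were called higher in A/J and 0 lower, 8 passed the adjusted p, and the median difference was 0.05. The called genes were Hamp2, a hepcidin (1.94, beside -0.05 for its paralog Hamp), the metallothioneins Mt2 (0.86) and Mt1 (0.64), and Fgl1, a secreted protein related to fibrinogen (0.63). Another 4, named after their values were seen, passed the adjusted p in limma and not the fold. The complement gene C4b differed by 0.36 (adjusted p = 5.06e-05) and the inter-alpha-trypsin inhibitor chain Itih4 by 0.23 (adjusted p = 0.000594), and for both the strains did not overlap. The lipopolysaccharide-binding protein gene Lbp differed by 0.46 (adjusted p = 0.00426) and Steap4, a metalloreductase, by -0.30 (adjusted p = 0.00571). Differences of the other 10 ran from -0.09 for Il1rn to 0.16 for Itih3. Hpx, Fga, Cp and Serpina3n were among these 10, with differences from -0.02 to 0.06. The mean of the 18 genes per sample ran from 12.51 to 12.71 in A/J and from 12.19 to 12.45 in C57BL/6J, so that the strains did not overlap. That mean includes the 4 called genes, all higher in A/J and led by Hamp2 (1.94), beside a median difference of 0.05. It was not set against means of other genes, so it does not show a shift of the whole list. Of all tested genes 5.29% were called, and 28.1% passed the adjusted p. The negative acute phase list had all 10 genes tested, with Serpina6, which encodes corticosteroid-binding globulin, called higher (0.94), the coagulation factor gene F12 called lower (-1.13) and a median of 0.02.

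Of 20 genes of IL-6 and IL-1 signalling 16 were tested, 2 were called higher and 1 lower, beside 5.29% of all tested genes, and the median was 0.08. The adjusted p was passed by 5 of the 16, beside 28.1% of all tested genes. Il6ra, the ligand-binding IL-6 receptor chain, was higher in A/J by 0.65 and the adaptor Traf6 by 0.66. Il6st, the signalling chain shared by the IL-6 family, was lower with a difference of -1.98, from 10.01 in C57BL/6J to 8.02 in A/J, a signal next to the array median. The IL-1 receptor accessory chain Il1rap (0.47, adjusted p = 0.000103) and the cytokine Il1b (-0.38, adjusted p = 0.00108, strains not overlapping), named after their values were seen, passed the adjusted p in limma and not the fold. Socs3 and Stat3, a feedback inhibitor and the main transcription factor of this pathway, differed by 0.09 and 0.08 and were not called. Of 11 transcription factors of acute phase genes 8 were tested and 0 were called in limma, with a median of 0.04, while 1 passed the adjusted p, Ppara (0.48).

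Among receptors and partners of these proteins 12 of 15 were tested, 1 was called higher and 2 lower, beside 5.29% of all tested genes, and the median was -0.09. The adjusted p was passed by 7 of the 12, beside 28.1% of all tested genes. Fcgr3, an Fc receptor that also binds pentraxins, was higher in A/J by 0.79. Fcer1g, the signalling chain of several Fc receptors, was lower with a difference of -2.54, from 10.35 in C57BL/6J to 7.80 in A/J, below the array median, and C1qb, a chain of complement C1q, was lower with a difference of -0.60. The 4 that passed the adjusted p in limma and not the fold, named after their values were seen, were the inhibitory Fc receptor Fcgr2b (0.55), the formyl peptide receptor Fpr2 (0.55), C1qa (-0.39) and the Toll-like receptor Tlr2 (-0.26).

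Markers of the cells a liver sample can hold were set beside these results. Of 16 hepatocyte markers 11 were tested, with gene means from 10.29 to 14.75, and their mean per sample ran from 13.07 to 13.43 in A/J and from 13.05 to 13.44 in C57BL/6J. In that list Cyp1a2 was called higher (0.79) and Hal lower (-0.86), beside 5.29% of all tested genes called. The adjusted p in limma was passed by 5 of the 11, beside 28.1% of all tested genes. Hpd (0.37), Cps1 (0.28) and Arg1 (-0.18), named after their values were seen, passed it and not the fold. The albumin probe, in the negative acute phase list, was at 9.32 in A/J and 8.94 in C57BL/6J. How well this probe reports albumin RNA was not tested, so its signal gives no amount of albumin RNA in these livers. Of 10 macrophage markers 5 were tested and 0 called in limma, with 0 past the adjusted p, and their mean ran from 10.08 to 10.73 in A/J and from 10.31 to 10.57 in C57BL/6J. Of 10 neutrophil markers 4 were tested with 0 called and 0 past the adjusted p in limma, their mean ran from 8.25 to 8.96 and from 8.29 to 8.92, and Ngp, Mpo, Elane, Ltf, Cxcr2 and Retnlg did not pass the filter. Of 8 adipocyte markers only Cidea passed it, called lower in A/J with a difference of -0.91 (adjusted p = 0.0105 in limma). It ran from 7.87 to 8.09 in A/J and from 8.10 to 10.00 in C57BL/6J. This gene alone does not show fat cells in the samples, and which cells it came from was not tested. Of 15 exocrine pancreas genes 13 were tested and Cela1 was called higher (1.25), and their mean stood out in A/J samples 4 and 7 and C57BL/6J sample 7, up to 10.88 and 12.57. Without those 3 samples the Apcs difference was 2.50 and the Orm2 difference -1.39.

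The mean of each of 4 marker lists (hepatocyte, macrophage, neutrophil and pancreas) was compared with each gene within strains, 40 relations chosen after the values were seen, and 2 passed an adjusted p of 0.05. Apcs moved with the hepatocyte mean (r = 0.761, permutation p = 0.00086, adjusted p = 0.0324; rho = 0.75, permutation p = 0.00218, n = 16). Without the 2 samples farthest in Apcs r was 0.777, and with samples 1 to 4 and 5 to 8 centred separately it was 0.417 (permutation p = 0.234). The hepatocyte mean was 13.07 to 13.19 in A/J samples 1 to 4 and 13.29 to 13.43 in A/J samples 5 to 8, the samples in which Apcs was also higher. Saa1 moved with the neutrophil mean (r = 0.679, permutation p = 0.00162, adjusted p = 0.0324; rho = 0.50, permutation p = 0.0636), and without C57BL/6J samples 3 and 4 r was 0.386. The neutrophil mean was 8.64 and 8.92 in those samples, and it was 8.96 in A/J sample 6, where Saa1 was at 8.49. The part of either cell type in these results was not tested.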

How the data were processed

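Hepatic RNA of 16 samples was hybridised to Illumina Mouse Ref 8 arrays. The authors summarised scans in BeadStudio and applied quantile normalization with lumi, and deposited log2 values of 25697 probes (tool versions, background correction and log transform: not given in the sources used here). A second deposited table, of unit other, pairs probes with identifiers that encode the 50-base probe sequences, and these were decoded. Sorted columns differed by at most 0.00086, so array totals cannot be compared, and the number of arrays limits the precision. No column of values was left out. Symbols came from the platform annotation, with 23978 probes of 1 symbol, 1719 of none, and 23962 matched to RefSeq (GRCm38.p6) by Entrez ID and 9 by accession.

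The 13060 probes of the highest mean were kept (lowest mean 8.00), the number the study's filter kept. Strains were compared with limma 3.58.1 (lmFit, eBayes, R 4.3.3), with Benjamini-Hochberg adjustment over kept probes. A gene was given by its brightest kept probe. Correlations used 100000 permutations within strains (2000000 for the pairs that passed, where the highest or the farthest samples were left out) or all pairings within a strain (numpy 2.4.6, scipy 1.17.1), and promoters were aligned with Biopython 1.88. The fit was tested on simulated data. The text names all members, up to 4 called genes of the largest change in each list (other positive and negative acute phase genes, IL-6 and IL-1 signalling, transcription factors, receptors and partners, and markers of neutrophils, macrophages, adipocytes, exocrine pancreas and hepatocytes), called genes within 1 Mb of Apcs, and the 5 genes most correlated with Apcs and with the brightest SAA probe. Members and lists were chosen with earlier results of these data known. Alternatives were other filters, centring, variance models, array weights, sample number as a block or as 1 to 4 against 5 to 8, other thresholds, leaving out samples, Spearman's rho and an exact permutation test.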

Additional observations from a re-analysis of the deposited data

Results flagged for a closer look

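In 24 groups of 8 samples, 12 probes in each strain, the distance of the highest and of the lowest sample to its nearest neighbour was set against the range of the group, and 3 groups had a sample farther away than Dixon's 95% limit. Chance gives about 1 in 20 groups. Saa4 in A/J sample 3 was at 13.19, below the next sample at 13.54. Orm2 in C57BL/6J sample 1 was at 11.74, below the next at 12.49, and it alone made the strains overlap for Orm2. Lcn2 in A/J sample 8 was at 9.33, below the next at 9.92, and Saa3 was lowest in the same sample at 8.99. Saa1 and Saa2 in C57BL/6J gave no such flag, since 2 samples were high together.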

How the results depend on the processing

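Apcs and Orm2 were called, with the same sign, under each of the filters, centring, variance models, weights, sample splits and left-out samples tried. The filters, variance models and terms for sample number cannot move a difference in this balanced design, only its p. Median centring changed nothing, because the array medians were already equal. Leaving out each sample in turn gave 2.44 to 2.59 for Apcs, -1.46 to -1.25 for Orm2, -0.33 to -0.27 for Orm1, -0.67 to -0.46 for Lcn2, -0.43 to -0.24 for Saa1, -0.52 to -0.30 for Saa2, -0.12 to -0.06 for Crp, -0.041 to 0.105 for Saa3, -0.064 to 0.093 for Saa4, and 0.03 to 0.093, -0.0104 to 0.0168 and 0.039 to 0.099 for the Hp probes, with 616 to 651 probes and 2 to 3 of the 12 called. Lcn2 passed the fold threshold without A/J 6, A/J 7 or C57BL/6J 8, in samples 1 to 4 (-0.75) and without the 3 samples with pancreas genes (-0.65). The adjusted p alone called 3459 probes and 4 of the 12, a 2-fold threshold 242 probes, against 635 and 2. Differences close to 0 turned sign: Saa3 was -0.028 with array weights, -0.048 in samples 1 to 4 and -0.144 without the pancreas samples, and the Hp probes were -0.079, -0.0071 and -0.022 in samples 1 to 4.

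Correlations of Apcs passed the adjusted p in none of these settings over the 27 tests. With samples 1 to 4 and 5 to 8 centred separately the adjustment was over the 45 pairs instead, and none passed. Without the 2 samples farthest in Apcs Orm2 (0.745) and Saa4 (0.724) passed over the 9 pairs alone. Others turned sign when samples 1 to 4 and 5 to 8 were centred separately (Saa1 0.207, Saa2 0.0716, Saa3 0.175, Hp 0.258), without the 2 samples farthest in Apcs (Saa1 0.233, Saa2 0.214, Saa3 0.131, Lcn2 0.0757) and with Spearman's rho (Saa3 0.119). Settings for the other pairs were chosen after seeing the data. There 1 pair passed with that separate centring, Orm1 with Orm2, 0 with Spearman's rho (largest rho 0.738) or without the pancreas samples, and 1 without C57BL/6J samples 3 and 4, Saa3 with Lcn2 (adjusted p = 0.0459, 2000000 permutations). In that order r was 0.923, 0.631, 0.943 and 0.498 for Saa1 with Saa2 and 0.766, 0.738, 0.763 and 0.796 for Saa3 with Lcn2, and it was 0.498 and 0.546 without the 2 farthest samples. The cause was not tested, beyond fewer samples where samples were left out.

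Sample numbers were not taken as pairs in the main fit, and the labels do not say what they stand for. Same-number deviations correlated at -0.01 to 0.54, above 0.1 for 6 of 8 numbers, with 3 of 8 best with their own number. Some structure shared along the numbers may therefore be present, and its source was not tested. Permutations within a strain treat its samples as exchangeable, which shared structure along the numbers would break. The number as a replicate block gave 641 called probes and the same 2 member probes, with a limma adjusted p of 0.000521 for Lcn2 in place of 0.0125. The differences (Apcs 2.51, Orm2 -1.32) stayed the same, as they must in a balanced design. Saa1 and Saa2 were too dim for the filter of 8000 probes and have no value there. Hp, Orm1 and Crp near the top of the scale and Saa1 and Saa2 near the array median limit what differences these arrays can show.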

Other observations

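For Orm2 and Lcn2, added after their values were seen, the genes most alike within strains were other than the acute phase genes. Ly6e, an interferon-induced surface protein (r = 0.832 over 16 samples), and Srpr, a subunit of the signal recognition particle receptor (0.803), led for Orm2, and Srpr was lower in A/J with a difference of -1.81. Unc93b1, a chaperone of Toll-like receptors (0.837), and Gltp, a glycolipid transfer protein (0.814), led for Lcn2, and neither was called between the strains.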
